A study of Mus musculus with 12 samples.

Results

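Fcrl6 and Fcgrt are a pair of genes related to the Fc receptors, the family of surface proteins that bind antibodies. They were chosen by their FPKM values, which were higher in CTL without FOXO1 than in CTL with it, so the difference between genotypes is described here and not tested. They were found by their gene symbols in the expression table, as 2 of its 13283 genes. Each had a value in all 12 libraries.

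Fc receptors read the constant part of antibodies and let cells take up, carry or respond to what an antibody has bound. Fcgrt encodes the heavy chain of FcRn, a relative of MHC class I molecules that pairs with the light chain B2m, binds IgG and albumin in acidic endosomes and returns them to the cell surface, which protects both from degradation. Fcrl6 encodes an Fc receptor-like protein of the immunoglobulin superfamily. The human protein is found on cytotoxic T cells and NK cells, binds the MHC class II molecule HLA-DR and carries an inhibitory motif (ITIM) in its tail.

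RNA sequencing was done on mouse CTL, the killer form of CD8 T cells, raised in culture. The WT group was GzmB cre+ and the FOXO1-GFP KO group was FOXO1-GFPfl/fl GzmB cre+, so every library carried a Cre recombinase driven by the granzyme B promoter and only the second genotype carried the floxed Foxo1 allele. Both came from lymph nodes or spleens of female, age-matched mice and were activated through CD3 and CD28 for 48 h, with IL-2 at 20 ng/mL and IL-12 at 2 ng/mL. The cells were then washed and kept for several more days with the same cytokines. In the last 24 h of culture each genotype was given vehicle (DMSO) or 10 µM of IC87114, an inhibitor of PI3K p110δ (PI3Kdi). This made 4 groups of 3 libraries, WT, WT+PI3Kdi, FOXO1-GFP KO and FOXO1-GFP KO+PI3Kdi. WT cells were sorted as CD8+, and FOXO1-GFP KO cells as CD8+ and negative for GFP, so that cells still holding the tagged protein were gated out.

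Foxo1 was at 5.77 to 10.5 FPKM in the 6 libraries with FOXO1 and at 0.58 to 1.75 FPKM in the 6 FOXO1-GFP KO libraries, as their labels say. The 9 CD8 T cell markers were all measured, with Cd8a at 139 to 253 FPKM. Of the B cell markers 3 of 12 were measured, and their summed level was 11.4 to 15.6 FPKM in WT and 15.3 to 19.5 in WT+PI3Kdi, against 4.48 to 6.88 in FOXO1-GFP KO and 4.31 to 6.36 with PI3Kdi added. Cd79a and Ms4a1 were among the 9 that had no value. Each library held between 12.9 and 48.0 M reads (M, mega), as estimated from the steps between low FPKM values.

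Fcrl6 (ENSMUSG00000070504) lies on the minus strand of chromosome 1, at chr1:172596642-172602551 of GRCm38, is protein coding and overlaps no other annotated gene. Its exons span 2678 bp without overlap. Fcgrt (ENSMUSG00000003420) lies on the minus strand of chromosome 7, at chr7:45092990-45103851, with 2102 bp of exons, and is also protein coding. An antisense gene on the plus strand, Gm45669, overlaps it from 45091409 to 45098320. The library kit keeps strand, but the strand used for counting is not given in the sources used here, so reads of Gm45669 within Fcgrt cannot be told apart from Fcgrt reads.

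The stretch just upstream of each gene is shown because both genes were chosen for their level in cells without a forkhead factor. The 200 bases run from 250 to 51 bases before the RefSeq transcription start (GRCm38.p6), 5′ to 3′ on the gene's own strand, and capitals mark GTAAACA, the forkhead core, or its first 6 letters GTAAAC.
Fcrl6, chr1:172602602-172602801, minus strand: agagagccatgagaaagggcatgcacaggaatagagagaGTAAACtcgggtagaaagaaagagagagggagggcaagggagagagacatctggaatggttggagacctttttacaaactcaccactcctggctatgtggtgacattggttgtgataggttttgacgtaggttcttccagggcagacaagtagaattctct
Fcgrt, chr7:45103873-45104072, minus strand: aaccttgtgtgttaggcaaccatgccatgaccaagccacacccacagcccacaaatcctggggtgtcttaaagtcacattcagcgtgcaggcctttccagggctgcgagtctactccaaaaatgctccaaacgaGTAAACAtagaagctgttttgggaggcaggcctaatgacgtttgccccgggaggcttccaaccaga

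Fcgrt held the 7 letters GTAAACA, starting 116 bases before the start. Fcrl6 held only GTAAAC, 211 bases before the start. Both strands were searched (TGTTTAC and GTTTAC on the other strand), every GTAAACA also counts as a GTAAAC, and the letters were chosen after the sequences had been seen. Of 32851 RefSeq promoters, 2.58% held GTAAACA and 5.74% held GTAAAC in the same 200 bases, and a match in the letters is not evidence of binding.

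In the limma fit of the whole table a gene was called where its fold change was over 1.5 and its adjusted p (Benjamini-Hochberg) under 0.05. By that rule 0.331% of all genes were called between genotypes without PI3Kdi and 0.0678% were called higher in FOXO1-GFP KO. With PI3Kdi 1.45% were called, and 0.437% were called higher in FOXO1-GFP KO. With PI3Kdi against vehicle, 0.0979% were called in WT and 0.0452% in FOXO1-GFP KO, or 2.57% and 2.79% when same-numbered replicates of a genotype were paired as a block. Without the block, an unadjusted p under 0.05 was reached by 865 of the 13283 genes between genotypes without PI3Kdi and by 1353 with it. For PI3Kdi against vehicle these were 683 genes in WT and 687 in FOXO1-GFP KO. The counts of listed genes at that p, given below, are to be read against these. Differences are on the log2(FPKM + 0.1) scale throughout, which understates the change of low mRNAs such as these.

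Fcrl6 mRNA was low in CTL with FOXO1. It was at 0.34, 0.54 and 0.39 FPKM in the WT replicates, which corresponds to 23, 69 and 29 reads, and at 0.22, 0.22 and 0.24 FPKM in WT+PI3Kdi, or 11, 9 and 10 reads. In FOXO1-GFP KO it was at 1.31, 0.95 and 0.84 FPKM, from 79, 83 and 29 reads. In FOXO1-GFP KO+PI3Kdi it was at 1.15, 1.24 and 1.12 FPKM, from 94, 70 and 53 reads. The highest of the 6 libraries with FOXO1 was at 0.54 FPKM and the lowest of the 6 without it at 0.84 FPKM. Fcrl6 was chosen for this rise, and how many of all genes separate by genotype in this way was not counted. Within each genotype, the PI3Kdi replicates lay closer together than the vehicle replicates.

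The group means of Fcrl6 were 0.423 ± 0.104 FPKM in WT and 0.227 ± 0.012 in WT+PI3Kdi, against 1.03 ± 0.246 in FOXO1-GFP KO and 1.17 ± 0.062 with PI3Kdi added (SD, n = 3 each). Without PI3Kdi the mean in FOXO1-GFP KO was 2.44 times that in WT, and with PI3Kdi it was 5.16 times. In order of level the groups were WT+PI3Kdi, WT, FOXO1-GFP KO and FOXO1-GFP KO+PI3Kdi. The last 2 of these overlapped and the first 2 did not, and how many of all genes separate as the first 2 did was not counted. Even at its highest Fcrl6 stayed among the low mRNAs, with 24.4% of the genes in the table below its mean in FOXO1-GFP KO+PI3Kdi and 7.50% below it in WT+PI3Kdi.

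Fcgrt mRNA had a similar course. In WT it was at 0.27, 0.33 and 0.39 FPKM, or 14, 33 and 23 reads, and in WT+PI3Kdi at 0.15, 0.25 and 0.25 FPKM, or only 6, 8 and 8 reads. In FOXO1-GFP KO it was at 1.27, 0.84 and 0.85 FPKM, from 60, 58 and 23 reads. In FOXO1-GFP KO+PI3Kdi it was at 1.48, 0.79 and 1.59 FPKM, from 95, 35 and 59 reads. The highest library with FOXO1, at 0.39 FPKM, was again below the lowest without it, at 0.79 FPKM, the rise that Fcgrt was chosen for. The FOXO1-GFP KO+PI3Kdi replicates spread widely, with replicate 2 below all 3 vehicle replicates and the other two above them.

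The group means of Fcgrt were 0.330 ± 0.060 FPKM in WT and 0.217 ± 0.058 in WT+PI3Kdi, against 0.987 ± 0.245 in FOXO1-GFP KO and 1.29 ± 0.434 with PI3Kdi added (SD, n = 3 each). The mean in FOXO1-GFP KO was 2.99 times that in WT, and with PI3Kdi it was 5.94 times. The order of the groups was that of Fcrl6. The first 2 again did not overlap while the last 2 did, again without a count over all genes. Of all genes, 25.9% were below its mean in FOXO1-GFP KO+PI3Kdi, and 7.12% were below its mean in WT+PI3Kdi.

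**Figure D1:**
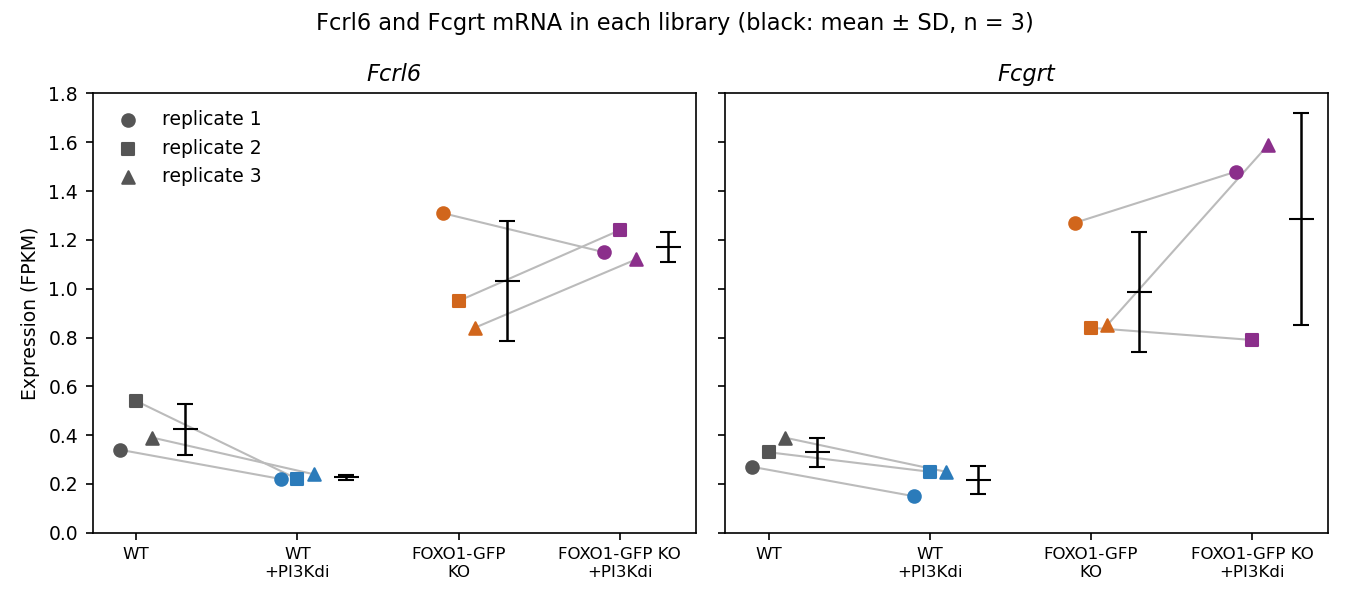
Expression (FPKM, linear axis from 0) of Fcrl6 and Fcgrt in the 12 libraries, with 3 points per group, grey lines joining the same replicate number of a genotype, and black bars for the mean ± SD (n = 3). All FOXO1-GFP KO points lie at or above 0.79 FPKM and all WT points at or below 0.54 FPKM, and the lines fall in WT but run both ways in FOXO1-GFP KO.

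These are few reads. Summed over 3 libraries, Fcgrt had 22 reads in WT+PI3Kdi, with an exact Poisson 95% interval of 13.8 to 33.3, against 189 (163 to 218) in FOXO1-GFP KO+PI3Kdi. Fcrl6 had 30 reads (20.2 to 42.8) against 217 (189 to 248). The summed depth behind these was 49.7 M reads for WT+PI3Kdi and 69.4 M reads for FOXO1-GFP KO+PI3Kdi. Such intervals cover counting error only. In bulk RNA, fewer cells expressing a gene and less RNA per cell cannot be told apart.

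Per kilobase of exon, neither mRNA was consistently the more abundant. Their ratio, Fcrl6 over Fcgrt in FPKM, was between 0.704 and 1.64 over the 12 libraries. It was lowest in FOXO1-GFP KO+PI3Kdi replicate 3 and highest in WT replicate 2.

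On the log2(FPKM + 0.1) scale of the fit, the difference of FOXO1-GFP KO over WT was 1.11 for Fcrl6 and 1.32 for Fcgrt without PI3Kdi, and 1.96 and 2.09 with PI3Kdi. These values chose the genes and carry no test. The 2 contrasts between genotypes share no library, but both were in view when the genes were chosen.

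The next question was whether blocking PI3K p110δ changed either mRNA within a genotype. These contrasts share libraries with those that chose the genes, and low values in WT+PI3Kdi would also raise the genotype difference with PI3Kdi. Replicate numbers paired the vehicle and PI3Kdi libraries of a genotype, and results are given without and with the pair as a block.

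In WT, how many of all genes were lower with PI3Kdi in all 3 pairs was not counted. Fcrl6 was lower in 3 of 3 pairs, at 0.647, 0.407 and 0.615 times the vehicle value. The mean fell to 0.535 times that of WT, a log2 change of -0.66 (SE 0.19, 95% interval -1.08 to -0.24). It did not pass in the fit without a block (limma, adjusted p = 0.405). With the replicate block it was called (adjusted p = 0.0123), while with the pairs as fixed terms the adjusted p was 0.0567. Over the 23 fits that were run the adjusted p was 0.0123 to 0.9997, and 2 of them, both with the block, called it.

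Fcgrt was also lower in 3 of 3 WT pairs, again without a count over all genes, at 0.556, 0.758 and 0.641 times the vehicle value. Its log2 change was -0.45 (SE 0.27, 95% interval -1.04 to 0.14) and did not pass without a block (limma, adjusted p = 0.9997) or with it (adjusted p = 0.108). The interval without a block holds both no change and the change measured for Fcrl6. The interval with the block, -0.79 to -0.10, lies below 0 and also holds the change of Fcrl6.

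In FOXO1-GFP KO, PI3Kdi moved neither mRNA past the test. Fcrl6 was at 0.878, 1.31 and 1.33 times its vehicle value in the 3 pairs. Its log2 change was 0.18 (SE 0.19, 95% interval -0.24 to 0.61; limma adjusted p = 0.933, with the block 0.368). Fcgrt was at 1.17, 0.940 and 1.87 times, with a log2 change of 0.32 (SE 0.27, 95% interval -0.27 to 0.91; limma adjusted p = 0.933, with the block 0.198). The PI3Kdi response in FOXO1-GFP KO minus that in WT was 0.85 for Fcrl6 and 0.77 for Fcgrt on the log2 scale, given as a description because it is the difference of the contrasts that chose the genes.

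**Figure D2:**
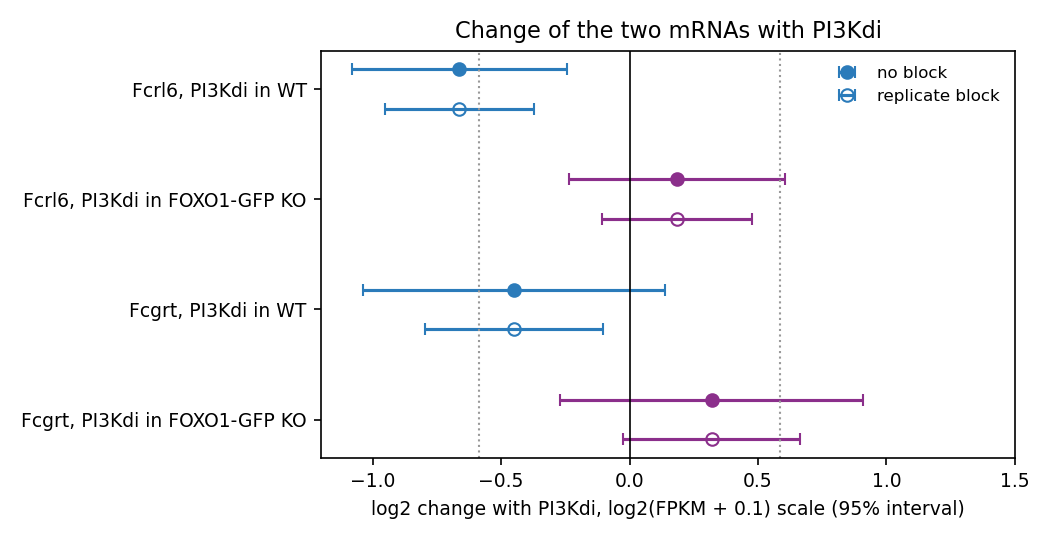
Log2 change with PI3Kdi (points) and its 95% interval (bars) for Fcrl6 and Fcgrt in each genotype, in the fit without a block (filled) and with the replicate block (open); dotted lines mark a fold change of 1.5. The interval of Fcrl6 in WT lies below 0 in both fits, that of Fcgrt in WT only with the block, and those in FOXO1-GFP KO include 0.

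The other Fc receptors were then examined. Of 17 Fc receptor genes besides this pair, 6 were measured, and limma called 0 of 6 in any of the 4 contrasts, with or without the block. At an unadjusted p under 0.05 there was 1, Fcgr4, between genotypes without PI3Kdi and 2, Fcgr3 and Fcgr4, with it. With PI3Kdi there were 0 in WT and 1, Fcmr, in FOXO1-GFP KO. Of these, voom on estimated reads with the replicate block called Fcmr. Their median log2 difference between genotypes was -0.14 without PI3Kdi and 0.07 with it, against -0.01 and 0.01 over all genes. Fcrl1, the only other Fc receptor-like gene measured, was at 0.15 to 0.30 FPKM in every library, with log2 differences of -0.13 and 0.23.

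The low-affinity IgG receptors had values on the other side from Fcrl6 and Fcgrt. Fcgr3 was at 1.89 to 3.10 FPKM in WT+PI3Kdi and at 0.29 to 1.34 in FOXO1-GFP KO+PI3Kdi, a log2 difference of -1.62 that missed the threshold (limma adjusted p = 0.0688). Fcgr4 was at 0.52 to 0.67 against 0.14 to 0.31 FPKM, a log2 difference of -1.14 (limma adjusted p = 0.0657). Fcer1g, the signalling chain that activating Fc receptors share, was far more abundant at 17.7 to 41.2 FPKM, with log2 differences of 0.26 and 0.24. Trim21, the cytosolic antibody receptor, was at 7.47 to 10.7 FPKM, and Fcmr, the IgM receptor, at 2.13 to 6.20 FPKM. Neither was called.

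FcRn needs B2m to leave the endoplasmic reticulum, and B2m was abundant in every library, between 2832 and 4817 FPKM. Its log2 difference between genotypes was 0.01 without and 0.20 with PI3Kdi. Of 18 genes of the MHC class I family, B2m included, 15 were measured, and in FOXO1-GFP KO none, 0 of 15, passed as higher and 2 passed as lower, both without and with PI3Kdi. Those were H2-Q6 and H2-Q7, which encode nonclassical class I chains and are near-identical copies. Many of their reads may not be assignable to 1 of the copies, so that each value is uncertain. H2-Q6 was at 232 to 296 FPKM in WT and 123 to 147 in FOXO1-GFP KO, a log2 difference of -1.03 (limma adjusted p = 0.00773), and at -0.89 with PI3Kdi (adjusted p = 0.00591). H2-Q7 was at -1.06 (limma adjusted p = 0.00841) and -0.91 (adjusted p = 0.00677).

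Without PI3Kdi these 2 calls were lost when WT replicate 2, FOXO1-GFP KO replicate 1 or FOXO1-GFP KO replicate 2 was left out, with limma adjusted p of 0.0505 to 0.0628. H2-Q10 was higher, at 25.4 to 25.9 FPKM in FOXO1-GFP KO+PI3Kdi against 9.54 to 16.4 in WT+PI3Kdi. Its log2 difference of 0.94 passed only with the replicate block (limma adjusted p = 0.0735 without and 0.0305 with it), and it too is a close copy of other class I genes.

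Of 14 measured genes of endosomal recycling, the route that FcRn takes, limma called 0 in the 4 contrasts. An unadjusted p under 0.05 was reached by 1, Ehd3, between genotypes, and by 1, Rab11fip5, with PI3Kdi in FOXO1-GFP KO, which voom on estimated reads with the block called. Their medians were -0.10 and -0.07 between genotypes. Rab11a, a GTPase of recycling endosomes, was at 17.8 to 25.1 FPKM in all libraries, with log2 differences of -0.06 and 0.15. Rab4a, which acts in fast recycling, had larger values, 1.26 and 1.71, without being called (limma adjusted p = 0.9998 and 0.513). It was at 0.08 to 0.19 FPKM in the libraries with FOXO1 and at 0.84 to 1.62 in replicates 2 and 3 of the FOXO1-GFP KO groups, but at 0.05 and 0.15 in their replicates 1.

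Among the genes around Fcrl6, the MHC class II family holds the ligand of the human protein. Of 10 genes 9 were measured, and limma called 0 in the 4 contrasts, with 2 or 3 at an unadjusted p under 0.05 in each. With the replicate block, H2-DMa, which loads peptides on class II molecules, was called higher with PI3Kdi in FOXO1-GFP KO (log2 change 0.71, limma adjusted p = 0.00137), as it was by voom with the block. The chains themselves were low, H2-Aa at 0.03 to 0.24 FPKM, H2-Eb1 at 0 to 0.41 FPKM and H2-Ab1 at 2.21 to 6.48 FPKM.

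The enzymes and adaptors that act below ITIM and ITAM tails were all measured, 12 of 12, and limma and voom called 0 in any contrast, with 1, Syk, at an unadjusted p under 0.05 between genotypes with PI3Kdi. Ptpn6, the phosphatase SHP-1, was at 19.2 to 32.3 FPKM with log2 differences between genotypes of -0.24 and -0.12. Inpp5d, the lipid phosphatase SHIP-1, was at 32.2 to 51.3 FPKM with log2 differences of 0.02 and 0.00. Tyrobp, an ITAM adaptor of NK cells, was at 0.60 to 2.25 FPKM with log2 differences of 0.73 and 0.43 that did not pass (limma adjusted p = 0.844 and 0.765).

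Human FCRL6 marks terminally differentiated cytotoxic cells, so genes of that state and of the naive and memory state were set beside it. Of 11 measured terminal effector genes, limma and voom called 0 between genotypes, with 0 and 1 (Tbx21) at an unadjusted p under 0.05, and their medians were 0.05 and 0.23. Klrg1, a receptor of terminal effectors, differed by 0.27 and 0.46 on the log2 scale, and Tbx21, which encodes T-bet, by 0.05 and 0.45. With the replicate block, PI3Kdi raised Klrd1, the CD94 chain, in WT (log2 change 0.93, limma adjusted p = 0.000244) and in FOXO1-GFP KO (0.64, adjusted p = 0.00260), and lowered Prdm1, which encodes Blimp-1, in WT (-0.61, adjusted p = 0.0227). None of these passed without the block.

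The naive and memory genes had the opposite sign to Fcrl6 and Fcgrt. Of 12 measured, several of them FOXO1 targets that the study names from these samples and so not independent of their direction, 0 were called higher and 1 lower between genotypes without PI3Kdi, and 0 higher and 2 lower with it, with medians of -0.43 and -0.65. The receptor Slamf6 differed by -1.47 (limma adjusted p = 0.00773) and -2.90 (adjusted p = 7.68e-05), and Tcf7, which encodes TCF1, by -1.99 with PI3Kdi (adjusted p = 0.00905). Slamf6 was at 0.21 to 0.33 FPKM in WT and 0.01 to 0.04 in FOXO1-GFP KO. With PI3Kdi it was at 0.88 to 1.13 and 0.04 to 0.07 FPKM. The FOXO1-GFP KO values lie below the 0.1 FPKM added before the log, so these log2 sizes depend on it. Leaving out FOXO1-GFP KO replicate 2 ended the call of Slamf6 without PI3Kdi (limma adjusted p = 0.0556). With PI3Kdi, WT cells had higher Slamf6 (log2 change 1.71, limma adjusted p = 0.00671), which was lost without WT replicate 2, WT replicate 3 or WT+PI3Kdi replicate 1 (adjusted p = 0.0505 to 0.0651). With the replicate block 8 of the 12 were called higher in WT cells given PI3Kdi, 5 were called higher in FOXO1-GFP KO cells, and 0 were called lower in either.

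**Figure D3:**
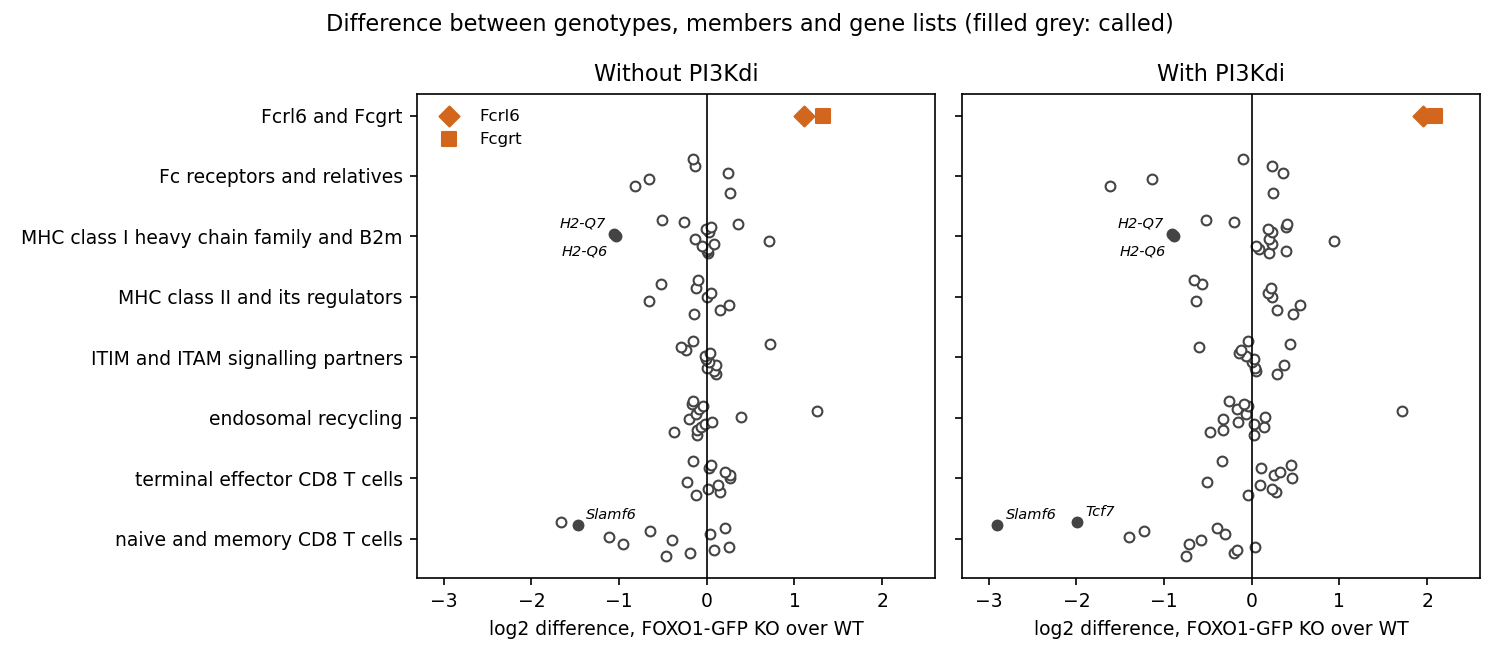
Log2 difference of FOXO1-GFP KO over WT on the log2(FPKM + 0.1) scale, without (left) and with PI3Kdi (right), for Fcrl6 and Fcgrt (orange, chosen for this difference) and each measured gene of 7 lists (circles, filled and named where called). The circles of the Fc receptors lie on both sides of 0, and the filled ones, H2-Q6, H2-Q7, Slamf6 and Tcf7, lie to its left.

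Other cells in the sort could carry Fc receptor mRNA, and their markers were read in the same libraries. The B cell markers moved with genotype in the opposite direction to Fcrl6 and Fcgrt, with Ighm at -1.60 without PI3Kdi (limma adjusted p = 0.0153) and -2.38 with it (adjusted p = 0.000831), and Igkc, listed at 0 in all 3 FOXO1-GFP KO+PI3Kdi libraries, called lower with PI3Kdi (adjusted p = 0.00249). The call of Ighm without PI3Kdi was lost when WT replicate 1 or 2 or FOXO1-GFP KO replicate 1 or 2 was left out (limma adjusted p = 0.0698 to 0.0873).

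Of the myeloid and dendritic markers 5 of 12 were measured, with 0 called by limma or voom and 0 at an unadjusted p under 0.05 in the 4 contrasts, and their sum was 16.6 to 21.8 FPKM in WT and 15.3 to 26.3 in WT+PI3Kdi, against 16.2 to 21.8 in FOXO1-GFP KO and 21.8 to 27.4 with PI3Kdi added. Nearly all of that sum was Cd68, at 14.5 to 26.95 FPKM, while Itgam and Itgax were at 0.02 to 0.16 and 0.10 to 0.32 FPKM. Csf1r, Lyz2 and Adgre1 were among the listed markers that had no value. The single NK marker measured of 5, Klrb1c, was at 1.94 to 2.67 FPKM in WT and 2.11 to 2.64 in WT+PI3Kdi, against 2.47 to 3.72 in FOXO1-GFP KO and 3.31 to 4.81 with PI3Kdi added. It was higher in FOXO1-GFP KO by 0.49 and 0.66 on the log2 scale, the direction of Fcrl6 and Fcgrt, with an unadjusted p under 0.05 in both genotype contrasts, but was not called (limma adjusted p = 0.642 and 0.195). The CD4 T cell markers, 3 of 4 measured, summed to 4.96 to 8.24 FPKM. Among them Cd4 itself was at 0.44 to 0.57 FPKM in WT and 0.83 to 0.95 in WT+PI3Kdi, against 0.09 to 0.44 in FOXO1-GFP KO and 0.12 to 0.51 with PI3Kdi added. Its log2 differences between genotypes, -0.96 and -1.27, had an unadjusted p under 0.05 and were not called (limma adjusted p = 0.670 and 0.215), while its log2 change of 0.68 with PI3Kdi in WT was called with the replicate block (limma adjusted p = 0.0413) and not without it (adjusted p = 0.9997). The part of these cells in the levels of Fcrl6 and Fcgrt was not tested.

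The chromosomal neighbours were examined to see whether either gene stood within a stretch that moved together. For each gene the 5 nearest measured genes on each side were taken. Around Fcrl6, limma and voom called 0 of 10 higher between genotypes, and 2, Ifi206 and Ifi214, were called lower in the presence of PI3Kdi (log2 differences -0.81 and -0.90, limma adjusted p = 0.0145 and 0.00545). These are interferon-inducible genes 866 and 917 kb away and members of a family of close copies, so their reads may be hard to assign. The call of Ifi206 was lost without WT+PI3Kdi replicate 1 or 3 or FOXO1-GFP KO+PI3Kdi replicate 2 or 3 (limma adjusted p = 0.0537 to 0.0645). Dusp23, the nearest at 28.2 kb, differed by 0.16 and 0.39, and Tagln2, 89.3 kb away, by 0.05 and 0.04.

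Around Fcgrt, 0 of 10 neighbours within 71.3 kb were called in either genotype contrast by limma or voom, with 0 and 1 (Rcn3) at an unadjusted p under 0.05. The largest difference with PI3Kdi was that of Rcn3, whose end lies 0.769 kb from Fcgrt, at 0.29 without and 0.56 with PI3Kdi (limma adjusted p = 0.278 with it). The ribosomal protein gene Rpl13a, 21.7 kb away, differed by -0.03 without PI3Kdi and by 0.20 with it. Flt3l, 25.9 kb away, differed by 0.05 and 0.50.

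**Figure D4:**
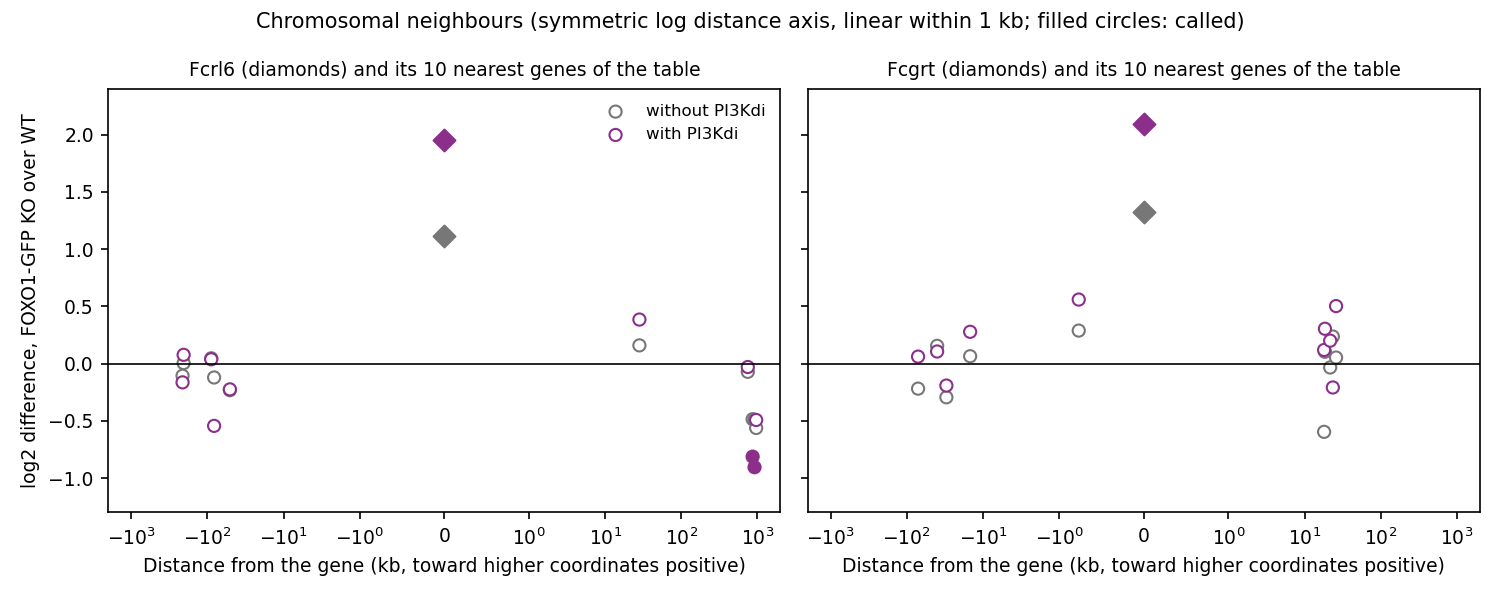
Log2 difference of FOXO1-GFP KO over WT for Fcrl6 and Fcgrt (diamonds at 0) and the 10 nearest measured genes of each (circles, filled where called), by distance in kb on a symmetric log axis, in grey without and purple with PI3Kdi. The circles lie between -0.90 and 0.56, and both diamonds of each gene lie above 1.1.

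The genes whose pattern over the 12 libraries was most like that of each member were found among 9751 genes by Pearson's r of log2(FPKM + 0.1). For Fcrl6 they were Jdp2 (r = 0.98), Acadm (0.95), Bmerb1 (0.95), Fcgrt (0.94) and Armc7 (0.94). For Fcgrt they were Khdc1c (0.96), Usp18 (0.95), Armc7 (0.94), Fcrl6 (0.94) and Bmerb1 (0.94). Each member was thus at rank 4 in the other's list, after both had been chosen for the same pattern. The 12 libraries share genotype, treatment and pairing, so these values mainly mark genotype.

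Once the group means were removed, r between Fcrl6 and Fcgrt was 0.27. It was 0.62 between Fcrl6 and Jdp2, which encodes a repressor of AP-1, and 0.54 with Acadm, a dehydrogenase of fatty acid oxidation. With Bmerb1 and Armc7 the value for Fcrl6 was 0.30 and 0.001. It was 0.64 between Fcgrt and Khdc1c and 0.53 with Usp18, an interferon-inducible protease that removes ISG15. With Armc7 and Bmerb1 the value for Fcgrt was 0.43 and 0.36. The genes were ranked on r over the same libraries, so high values here come partly from that choice. Jdp2 had group means of 6.29 FPKM in WT, 4.75 in WT+PI3Kdi, 9.85 in the KO and 10.8 in the KO with PI3Kdi. Bmerb1, on both lists, had means of 2.10, 1.64, 5.67 and 5.93 FPKM in the same order. None of the 6 genes lies on the chromosome of the member it resembled.

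**Figure D5:**
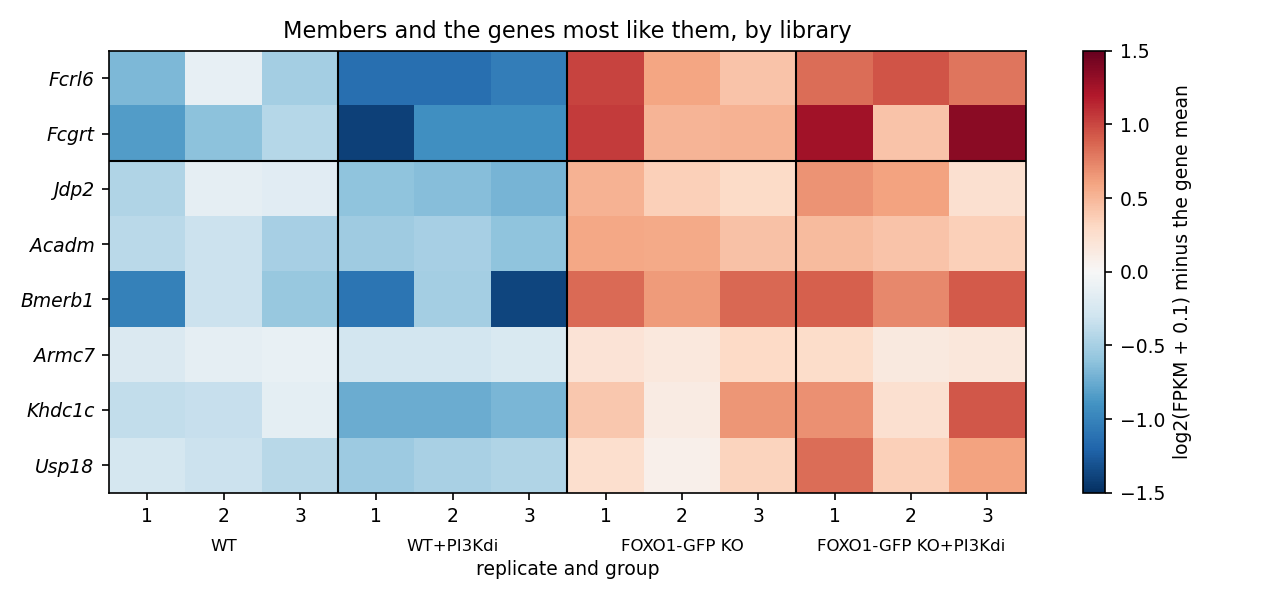
Log2(FPKM + 0.1) minus each gene's mean over the 12 libraries, for Fcrl6, Fcgrt (top 2 rows) and the 6 genes most like them, with replicates 1 to 3 of each group in columns; red is above and blue below the mean. All 8 rows are blue in the 6 libraries with FOXO1 and red in the 6 without it, with the strongest red for Fcgrt in FOXO1-GFP KO+PI3Kdi replicates 1 and 3.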

How the data were processed

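The authors aligned reads with STAR 2.7.1a to GRCm38.p6, counted them per gene on an Ensembl annotation, dropped low genes by filterByExpr in edgeR, applied TMM factors and used the total exon length per gene for FPKM. These deposited FPKM are rounded to 2 decimals for 13283 genes, and the table has 0 value columns that belong to no sample. Positions came from GENCODE M21 (GRCm38; 13270 genes matched) and promoters from RefSeq, where both genes matched.

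Reads per library were recovered from genes of up to 400 bp, whose rounded FPKM fall on whole reads. In held-out genes of 400 to 800 bp, 98.8 to 99.7% of values came out whole within 0.2 reads, against 40% by chance. Read numbers are such estimates, on the TMM-scaled depth.

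limma 3.58.1 (R 4.3.3) fitted 4 group means to log2(FPKM + 0.1) of all genes in the 12 libraries, with a mean-variance trend, two-sided tests and Benjamini-Hochberg adjustment over all genes; a call needed an adjusted p under 0.05 and a fold change over 1.5 (log2 0.585). The fits were tested on simulated data. The labels name biological replicates without saying whether same-numbered libraries share a mouse. Deviations from group means correlated at 0.596 to 0.838 between same-numbered WT libraries and at 0.594 to 0.780 in FOXO1-GFP KO, so replicate numbers were used as pairs inside each genotype. Across genotypes the correlation was -0.409 to 0.730, so they were not paired there. The block was a random effect (consensus correlation 0.757). p-values measure the spread between these libraries.

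Named genes were the members, Foxo1, 5 measured neighbours on each side, the 5 genes most correlated with each member (mean of at least 1 FPKM in a group, no predicted gene models), and called genes and up to 4 examples of each list. Some of the Fc receptor, recycling and marker genes beyond those 4 were named after their values were seen. The members and lists were chosen with earlier results of these data known. Alternatives are listed in the closing section.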

Additional observations from a re-analysis of the deposited data

Results flagged for a closer look

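With 3 libraries per group, no group was large enough to look for a library far from the others. The genes looked at here were 16: the members, the genes most like them, and the listed or neighbouring genes that were called. Of these, 4 moved one way with PI3Kdi in all 3 WT pairs and the opposite way in all 3 FOXO1-GFP KO pairs. The same was seen in 3.03% of all genes in the table. Because the 16 were chosen from these same data, the 2 shares cannot be compared. Neither Fcrl6 nor Fcgrt was among them, since their FOXO1-GFP KO pairs went both ways. Bmerb1 changed by -0.09, -0.32 and -0.97 FPKM in WT and by 0.20, 0.32 and 0.25 in FOXO1-GFP KO, and its responses differed by 0.42 on the log2 scale. Khdc1c changed by -0.43, -0.45 and -0.68 FPKM in WT and by 0.69, 0.21 and 0.79 in FOXO1-GFP KO, with a difference of 0.66. Usp18 changed by -1.13, -0.71 and -0.15 FPKM in WT and by 4.71, 1.82 and 2.01 in FOXO1-GFP KO, with a difference of 0.54. These 3 were picked for their likeness to the members, so their difference is a description. It did not pass in the limma fit for any of them. Ighm changed by 2.99, 2.65 and 5.16 FPKM in WT and by -0.71, -0.18 and -0.56 in FOXO1-GFP KO, a difference of -0.78 that did not pass (limma adjusted p = 1).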

How the results depend on the processing

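Fcrl6 and Fcgrt kept their direction in all 5 contrasts under every alternative run. A minimum mean of 1 FPKM left both out, so that filter gave no value for either, and pairs as fixed terms could not be fitted for genotype contrasts. The PI3Kdi change of Fcrl6 in WT was called with the replicate block (-0.66) and with voom plus the replicate block (-0.84), run on estimated reads, the 2 voom fits being chosen after seeing the data; the block changed no other call of this pair within a genotype. The genotype differences of Fcrl6 and Fcgrt moved by more than 1 SD with a pseudocount of 1 FPKM (0.51 and 0.57 without PI3Kdi, 0.82 and 0.89 with it, 0.31 and 0.32 for the difference of responses) and of 0.01 FPKM (2.32 and 2.49 with PI3Kdi). With PI3Kdi voom gave 2.31 and 2.49, and 2.21 and 2.54 with the block, and 1.06 for the difference of responses of Fcrl6.

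Counts of called genes were 13 for PI3Kdi in WT, 6 for PI3Kdi in the KO and 44 and 193 between genotypes without and with PI3Kdi. The replicate block gave 31 and 157 between genotypes. For PI3Kdi within a genotype they were 342 and 370 with the replicate block, 254 and 328 with pairs as fixed terms, 404 and 498 with voom and the block, and in WT 22 with voom. Fits of the 2 groups of a contrast alone, with fewer libraries, called 0, 0, 0 and 94, with 681, 676, 786 and 1237 genes at an unadjusted p under 0.05, and the filter at 1 FPKM, with fewer genes tested, left 111 between genotypes with PI3Kdi. Leaving out 1 library gave 1 to 10, 0 to 4, 8 to 41 and 111 to 196, lowest without WT replicate 2 or WT+PI3Kdi replicate 1 for the first, FOXO1-GFP KO replicate 2 for the PI3Kdi count in FOXO1-GFP KO (0 without 5 other libraries too) and the genotype count without PI3Kdi and FOXO1-GFP KO+PI3Kdi replicate 3 for the last.

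Of the listed genes, 1 was called for PI3Kdi in WT, 0 for PI3Kdi in the KO and 4 without PI3Kdi between genotypes. With PI3Kdi these were 12 and 7 with the block, 11 and 7 with fixed terms, and 12 and 10 with voom and the block; in WT they were 2 with voom, and 0 with a pseudocount of 0.01 FPKM, with the 1 FPKM filter or in the 2 groups alone. Between genotypes without PI3Kdi the 2 groups alone gave 0. Leaving out 1 library gave 0 to 1 with PI3Kdi in WT and 0 to 5 between genotypes without PI3Kdi. Neighbours called between genotypes with PI3Kdi were 2, 1 in the 2 groups alone and 1 to 2 with a library left out. Depth limits both genes most in WT+PI3Kdi, where a library had 6 to 11 reads of each.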
